A study of Mus musculus with 2 samples.

Results

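The barcodes described here came from the adult mouse hippocampus library and carried little Malat1, a long noncoding RNA that is kept in the nucleus. A barcode was a member when it had at least 500 unique molecular identifiers (UMIs, each counting 1 captured RNA molecule), under 5% of UMIs from mitochondrially encoded genes and under 1.5% of UMIs from Malat1. Of 1609 barcodes that passed the filters on depth and mitochondrial UMIs, 317 were members (19.7%, 95% exact binomial interval 17.8 to 21.7), and the other 1292 are called Malat1-rich. The members were selected on measured values, the Malat1 and mitochondrial shares of the same UMIs that the genes below were counted in, so all differences between both sides are given as descriptions with no test. Both sides also come from 1 library, and barcodes are not replicates, so no p-value is given and each interval covers counting error only.

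The library was made from a male C57BL/6J mouse of 56 days. A 20 µm coronal section of fresh-frozen brain was laid on spatially barcoded beads, the nuclei were tagged with spatial barcodes and extracted with detergent, and they were profiled by droplet-based single-nucleus RNA sequencing (Slide-tags snRNA-seq). The only other library is from the brain of a C57BL/6J embryo at embryonic day 14 (E14), and it is used below side by side only. All barcodes carried the same genotype and no treatment, and each library is 1 animal.

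A nucleus holds pre-messenger RNA with its introns and noncoding RNAs such as Malat1, Meg3 and Neat1, whereas spliced messenger RNA is found mostly in the cytoplasm. Neurons send some messengers far into their dendrites, among them those of the kinase Camk2a, the microtubule-binding proteins Map1a and Map2 and the postsynaptic protein dendrin (Ddn), and astrocytes likewise hold messengers in their fine processes around synapses. Messengers for ribosomal proteins, glycolytic enzymes and the nuclear-encoded subunits of the respiratory chain are abundant in cytoplasm of all cells. The counts used here include intronic reads and do not separate them from exonic ones.

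The Malat1-poor barcodes were shallow. They held a median of 908 UMIs from 679 genes, with a range of 500 to 37323 UMIs, against 9071.5 UMIs from 3681 genes in the Malat1-rich barcodes. Together they gave 525400 UMIs, 3.42% of the UMIs of both sides, and the deepest barcode alone gave 7.10% of these. Malat1 took a median of 0.188% of UMIs in the members and 5.37% in the others, and 61 members held no Malat1 UMI. Mitochondrially encoded genes took a median of 1.73% in the members and 0.0910% in the others. Of the 317 members, 244 (77.0%) lay under 0.5% Malat1. Only 34 barcodes lay near the limit, 14 just inside it, from 1.29% to 1.47%, and 20 just outside it, from 1.51% to 1.73%. The plot of Malat1 share against depth shows the members as a band along the lower left. The filter on mitochondrial UMIs removed 52 of the 1661 deposited barcodes, and 50 of these were also under 1.5% Malat1. One barcode sequence occurred in both libraries, and it was not a member.

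**Figure D1:**
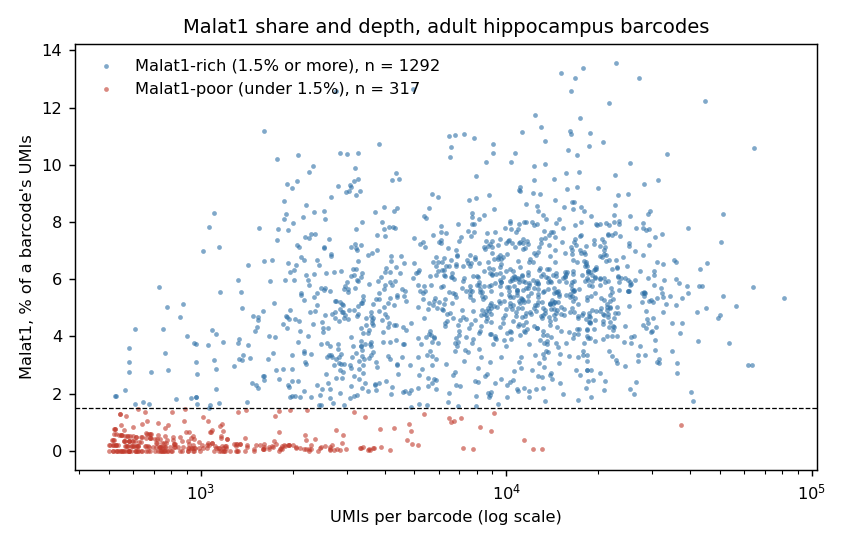
Malat1 share of UMIs (vertical axis, %) against UMIs per barcode (horizontal axis, log scale) for the 317 Malat1-poor (red) and 1292 Malat1-rich (blue) barcodes of the adult hippocampus, 1 point per barcode, with the limit of 1.5% as a dashed line. Most red points sit under 2000 UMIs and well below the line.

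The 6 marker genes that came with the rule were all higher in the Malat1-poor barcodes. Levels are given as CPM, the UMIs of a gene summed over a side's barcodes per 1000000 UMIs of that side. Map1a, which binds and stabilises microtubules in dendrites, stood at 2423 CPM (95% exact Poisson interval 2292 to 2560) in the members and at 182 CPM (175 to 189) in the others, a ratio of 13.3 (95% exact binomial interval 12.5 to 14.2). It lies at chr2:121289600-121310832 on GRCm38, on the plus strand, as a coding gene of 7 exons and 21.2 kb. Ddn, at chr15:98803777-98809490 on the minus strand with 3 exons, was 12.4-fold higher (11.2 to 13.8), with 1053 against 84.6 CPM. Aldoc, the aldolase of astrocytes, was 10.4-fold higher (9.20 to 11.7), with 731 against 70.5 CPM. Clusterin (Clu), a secreted chaperone made by astrocytes, was 5.78-fold higher (5.29 to 6.31). The neuronal calcium-binding proteins neurogranin (Nrgn) and hippocalcin (Hpca) were 3.50-fold (3.24 to 3.78) and 3.20-fold (2.81 to 3.63) higher. These 6 genes were chosen with earlier results of these data known, so their direction was not open, and the intervals cover counting error only. Without the 113 barcodes of the first group described below, the ratio of Hpca was 1.77.

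Across the transcriptome, 8098 genes had enough UMIs to expect 10 or more on the Malat1-poor side. Of these, 1773 (21.9%) were at least 2-fold higher and 2483 (30.7%) at least 2-fold lower in the Malat1-poor barcodes, and the median log2 ratio was -0.18. The Malat1-rich side gave most of the UMIs, so genes low in the members passed this filter more easily than genes high in them. Leaving aside Malat1 and the mitochondrial genes, the genes with the highest ratios were Hpcal4, a hippocalcin relative, at 13.9-fold, the small GTPase Rasl10b at 13.4-fold, Map1a and Ddn. Ttc9b at 11.7-fold, the astrocyte gene Ndrg2 at 11.3-fold, the ribosomal protein gene Rps24 at 11.2-fold and the axonal kinesin Kif5a at 10.5-fold followed. The other 7 of the 15 highest were Aldoc, Cabp7, Scrt1, Psd, Rpl37, Rps29 and Rpl38, with ratios from 9.67 to 10.4. All 15 encode proteins and span at most 37.7 kb. The 15 lowest were of another kind: 12 of them are antisense or other noncoding transcripts, and the other 3 are the coding genes Glis3, Adamts17 and Fstl4, which span 421, 313 and 424 kb. Lncpint, a nuclear noncoding RNA, held 10 UMIs against 7068 (ratio 0.0399, 0.0191 to 0.0734), and Nrg3os, antisense to Nrg3, held 22 against 14601 (0.0425, 0.0266 to 0.0644). Gm41609 had no UMI in the members and 3141 in the others, which at a floor of 3 UMIs over the members is at least 37.1-fold lower. How antisense and overlapping transcripts were assigned is not given in the sources used here, so their values are uncertain.

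Because the sides can differ in which cell types they hold, each level was also set beside the 10 named classes of Malat1-rich barcodes. These classes (CA1-like, CA3-like, dentate granule-like, thalamic-like, inhibitory-like, astrocyte-like, oligodendrocyte-like, oligodendrocyte precursor-like, microglia-like and endothelial-like) were clustered from the Malat1-rich barcodes alone and named from marker genes. A gene above the highest of them is above every class that was named. That was so for 20.4% of all genes, by at least 2-fold for 466 genes (5.75%), and 539 genes (6.66%) were at least 2-fold below the lowest class. In a sum over barcodes, a larger share of barcodes of a class and a higher level per barcode cannot be told apart, and this comparison limits only the first.

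Dendritic messengers were higher as a list. All 11 were at least 2-fold higher in the Malat1-poor barcodes, beside 21.9% of all genes, with a median log2 ratio of 2.31. Together they took 1.53% of the UMIs of the members and 0.272% of the others. Per barcode, the list took a median of 1.395% of UMIs (quartiles 0.770 and 2.69) in the members and 0.234% (0.108 and 0.319) in the others, so the middle ranges of the sides did not overlap. Besides Map1a and Ddn, Psd, a guanine nucleotide exchange factor of the postsynaptic density, was 9.86-fold higher and Ppp1r9b (spinophilin), a scaffold of dendritic spines, 9.67-fold. The scaffold Shank1 was 6.16-fold higher. Map2 and Camk2a were 4.95-fold (4.65 to 5.27) and 4.60-fold (4.41 to 4.80) higher. The smallest ratios were those of the scaffolds Dlg4 (3.01) and Shank3 (2.09). Of the 11, 9 were also at least 2-fold above the highest Malat1-rich class, with Map1a 6.83-fold above it, and Shank3 was the only one below it, at 0.792 of the thalamic-like level. For 7 of them the highest class was the astrocyte-like one, in which Ddn stood at 379 CPM against 91.4 CPM in dentate granule-like and 48.0 CPM in CA1-like barcodes. The part of these astrocyte-like barcodes in the values was not tested.

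Calcium sensors and the calcium-calmodulin pathway were next. Of 16 genes, 13 were at least 2-fold higher, beside 21.9% of all genes, and none lower, with a median log2 ratio of 1.80. The calmodulin genes Calm3 and Calm2 were 5.87-fold and 3.45-fold higher. Camk2n1, an inhibitor of CaM kinase, was 8.59-fold higher. The small calmodulin-binding protein Pcp4 was 5.37-fold higher. The exceptions were Camk2b (ratio 1.48), the kinase Camkk2 (1.46) and the calcineurin subunit Ppp3ca (1.12), which spans 268 kb.

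Genes of synaptic vesicles and release were split. Of 15, 9 were at least 2-fold higher, beside 21.9% of all genes, none was 2-fold lower and the median log2 ratio was 1.17. The complexin Cplx2 (5.89-fold), the vesicle protein Vamp2 (5.79-fold), Cplx1 (5.20-fold) and Rab3a (4.28-fold) were among the highest. Each of these spans at most 31.5 kb. The calcium sensor of release Syt1, which spans 513 kb, was lower, with a ratio of 0.602 (0.556 to 0.651). Syn2 and Sv2b, which span 147 and 194 kb, stood at 0.868 and 1.00.

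All 19 genes of the astrocyte process list were at least 2-fold higher, beside 21.9% of all genes, with a median log2 ratio of 2.53. Most of them, however, were no higher than in astrocyte-like Malat1-rich barcodes. Ndrg2 (11.3-fold), Aldoc, the metallothionein Mt1 (9.17-fold), the lipid carrier Apoe (7.14-fold), Mt3 (6.93-fold), the secreted inhibitor Cst3 (6.62-fold), glutamine synthetase (Glul, 6.41-fold) and the water channel Aqp4 (6.16-fold) led the list. The glutamate transporters Slc1a2 and Slc1a3 were 5.57-fold and 3.36-fold higher. Only 3 of the 19, a share below that of all genes, exceeded the highest class, Mt3, Ndrg2 and Mt1, by 1.69-fold, 1.26-fold and 1.08-fold, while Slc1a2 stood at 0.555, Clu at 0.492 and the gap junction gene Gja1 at 0.312 of it. Each poor barcode was assigned to the class that best matched its marker UMIs, which gave 163 of the 317 barcodes and 55.9% of their UMIs to the astrocyte-like class. With the Malat1-rich classes weighted to this make-up, the list's median log2 ratio was 0.12, and the ratios of Aldoc and Clu were 1.65 and 0.857. The markers used for the assignment include Aldoc, Clu, Slc1a2, Slc1a3, Aqp4, Gja1 and Ntsr2 of this same list. The fall of its median is therefore partly built in. With the same weighting the dendritic list's median log2 ratio was 2.01.

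Metabolic messengers were higher without exception. All 30 nuclear-encoded genes of the respiratory chain were at least 2-fold higher (median log2 ratio 2.46), beside 21.9% of all genes. All 30 lay above the highest Malat1-rich class, and 22 of them did so by at least 2-fold, beside 5.75% of all genes. The cytochrome oxidase subunits Cox8a (8.46-fold), Cox6a1 (8.19-fold), Cox6c (7.88-fold) and Cox4i1 (7.86-fold) were at the top. Per barcode, the list took a median of 1.52% of UMIs (quartiles 1.17 and 1.93) in the members and 0.218% (0.147 and 0.337) in the others. All 16 glycolytic genes were at least 2-fold higher, beside the same 21.9% of all genes, from Pfkp at 2.02-fold to Aldoc. Of these, 14 lay above the highest class. Gapdh was 4.95-fold, Aldoa 4.70-fold and Pgam1 6.08-fold higher.

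Messengers of general cytoplasmic function behaved alike. All 15 were at least 2-fold higher, beside 21.9% of all genes, with a median log2 ratio of 2.54. The elongation factor Eef2 was 8.97-fold and ferritin heavy chain (Fth1) 8.74-fold higher. Of 83 ribosomal protein genes 79 were kept, and 78 were at least 2-fold higher (median log2 ratio 2.80) and the exception, Rpl7l1, is a relative of Rpl7 with a ratio of 1.92. Together they took 6.28% of UMIs in the members and 0.877% in the others. Ribosomal protein genes have many processed copies that can share reads, so single values are uncertain. Of 22 cytoskeletal genes 21 were kept, and 19 were at least 2-fold higher, beside 21.9% of all genes. The light neurofilament Nefl (6.69-fold), stathmin (Stmn1, 6.48-fold) and the tubulin Tuba4a (6.41-fold) followed Kif5a. Tau (Mapt), which spans 101 kb, stood at 1.04 and Tubb4a, highest in the oligodendrocyte-like class, at 1.33. Of 10 ATPase pump genes, 6 were at least 2-fold higher, beside 21.9% of all genes. The calcium pump Atp2b3 stood at 0.638.

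**Figure D2:**
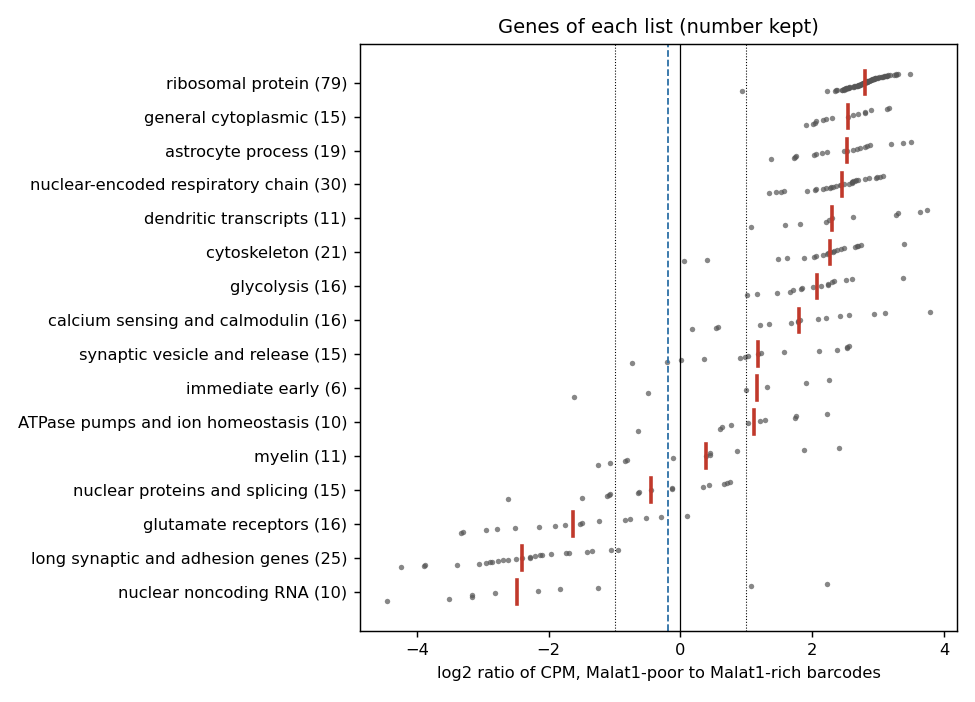
Log2 ratio of CPM in Malat1-poor to Malat1-rich barcodes (horizontal axis) for each kept gene of 16 lists (grey points, number kept in brackets, Malat1 left out), with the list's median as a red bar, 2-fold limits dotted and the median of all 8098 genes dashed. Ribosomal protein genes sit highest, with a median of 2.80, and nuclear noncoding RNAs lowest, with a median of -2.48.

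Long genes for synaptic adhesion and signalling were the lowest coding list. Of 25, 24 were at least 2-fold lower, beside 30.7% of all genes, and the median log2 ratio was -2.40. They took 1.22% of UMIs in the members and 7.14% in the others. None of the 25 lay below the lowest Malat1-rich class, beside 1426 of all 8098 genes. The list took 0.491% to 1.601% of UMIs in the Malat1-poor groups, against 0.5523% in the endothelial-like and 0.83% in the microglia-like class. All other named classes lay higher, from 3.938% in the oligodendrocyte-like to 9.393% in the thalamic-like class. Kcnip4, which encodes a potassium channel interacting protein and spans 1135 kb at chr5:48389502-49524907 on the minus strand, had 276 UMIs in the members and 146747 in the others, or 525 against 9901 CPM (ratio 0.0531, 0.0470 to 0.0597). Introns make up 99.7% of it. Nrg3 and Fgf14 followed with ratios of 0.0677 and 0.0683, and the adhesion molecule Lsamp, which spans 2197 kb, stood at 0.0955. The splicing factor gene Rbfox1 had a ratio of 0.178. The exception was Erbb4, a receptor of inhibitory neurons, at 0.521 (0.430 to 0.625).

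Glutamate receptor genes, most of them long, went the other way from the dendritic messengers. Of 16, 11 were at least 2-fold lower, beside 30.7% of all genes, and none higher, with a median log2 ratio of -1.64. None of the 16 lay below the lowest Malat1-rich class, beside 1426 of all 8098 genes. The list took 0.371% to 0.768% of UMIs in the Malat1-poor groups, against 0.554% in the astrocyte-like and 0.378% in the oligodendrocyte-like class. Among barcodes under 2000 UMIs alone the list's median was 0.95, against 0.251 over all genes. There, 6 of 14 kept genes were at least 2-fold higher and 3 lower, beside 33.4% and 26.3% of all genes. The kainate receptor genes Grik4 and Grik2 stood at 0.0998 and 0.102, the NMDA receptor gene Grin2a at 0.175 and the AMPA receptor gene Gria1 at 0.296. Grin1, the obligatory NMDA subunit, spans only 28.0 kb and still had a ratio of 0.355. Grik5 (1.07), Grik1 (0.811), Grin2b (0.695), Gria2 (0.591) and Grm3 (0.558) did not pass the limit.

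Noncoding RNAs other than Malat1 were lower with a pair of exceptions. Of 11 on the list 10 were kept, and 8 were at least 2-fold lower, beside 30.7% of all genes, with a median log2 ratio of -2.48. Only 1 of the 10 lay below the lowest Malat1-rich class, beside 1426 of all 8098 genes. The list took 0.0795% to 0.179% of UMIs in the Malat1-poor groups, against 0.132% in the astrocyte-like and 0.142% in the oligodendrocyte-like class. Miat had 4 UMIs in the members and 2474 in the others (ratio 0.0456, 0.0124 to 0.117). Snhg11 stood at 0.112, Meg3 at 0.143 (0.126 to 0.161) and Neat1, the scaffold of paraspeckles, at 0.282. Peg13 and Pantr1 were higher, by 4.68-fold (3.35 to 6.42) and 2.10-fold (1.72 to 2.54). By annotation, 103 of 124 kept lincRNA genes (83.1%) and 320 of 349 antisense genes (91.7%) were at least 2-fold lower, against 1975 of 7502 coding genes (26.3%). Noncoding genes could pass the count filter through the Malat1-rich side alone, as the lincRNA gene 1700007F19Rik did with 1 against 2093 UMIs. The part of this in the noncoding shares was not tested. Messengers for nuclear and splicing proteins are themselves translated in the cytoplasm. Of these 15, 5 were at least 2-fold lower, a share near the 30.7% of all genes, and none higher, with a median log2 ratio of -0.45. Celf2, which spans 970 kb, stood at 0.162, Srsf11 at 0.356 and Pnisr at 0.461, while Srsf5 and Ddx5 stood at 1.69 and 1.63.

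The ratio followed the length of the gene. Gene spans are from GENCODE vM21 on GRCm38. Genes of at most 5 kb took 18.3% of UMIs in the members and 4.22% in the others, and genes over 500 kb took 4.47% and 19.4%. In between, the shares were closest in the range of 50 to 100 kb, at 14.2% and 13.9%. Malat1 itself lies in the range of 5 to 10 kb. The 13 mitochondrially encoded genes, which the rule also used, lie in the range of at most 5 kb. They took 1.96% of UMIs in the members and 0.148% in the others, so part of the difference in that range comes from the selection. Per barcode, genes of 100 kb or more took a median of 20.4% of UMIs (quartiles 18.2 and 23.1) in the members and 47.4% (40.6 and 52.5) in the others. Of 1834 kept coding genes of 100 kb or more, 71 (3.87%) were at least 2-fold higher and 968 (52.8%) lower, and of 1980 under 20 kb, 1060 (53.5%) were higher and 177 (8.94%) lower. Over 7502 coding genes, which share both sets of barcodes and are not independent, the Spearman correlation of the log2 ratio was -0.57 with span, -0.56 with intron length, -0.35 with the number of exons and -0.31 with the length of the spliced transcript.

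**Figure D3:**
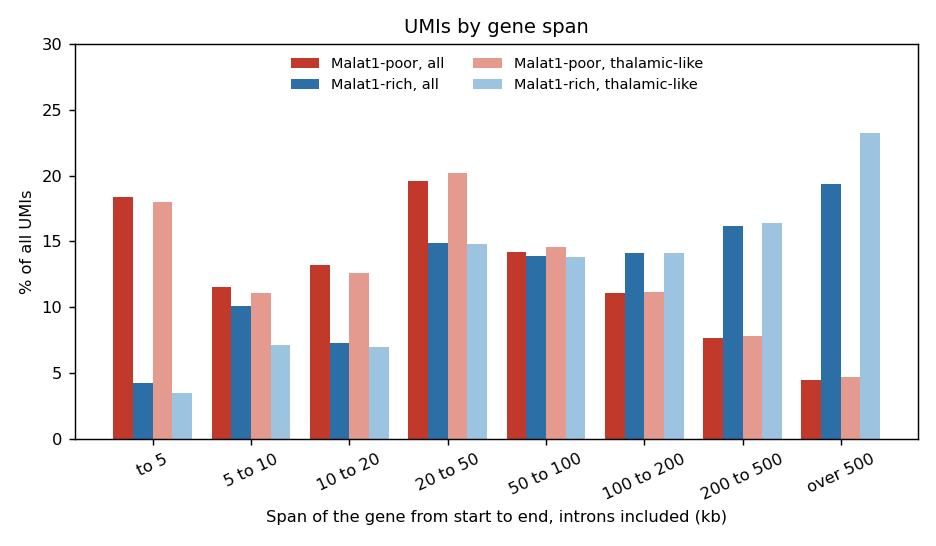
Share of all UMIs (vertical axis, %) from genes of each span class (horizontal axis, kb from gene start to end with introns) in Malat1-poor (red) and Malat1-rich (blue) barcodes, all of them (dark) and the thalamic-like ones alone (light). The Malat1-poor barcodes stand at 18.3% at up to 5 kb and at 4.47% over 500 kb, and the Malat1-rich barcodes at 4.22% and 19.4%. The shares include Malat1 and the mitochondrially encoded genes, which the rule used.

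Some genes left this relation, and they were picked here after their values were seen. The long coding genes with the highest ratios were the lipid transfer gene Scp2 (101 kb, 6.51-fold), Btbd3, which spans 333 kb (6.16-fold, 5.60 to 6.76), Slc1a2 (132 kb) and Map2 (267 kb). The adenylyl cyclase Adcy1 (115 kb) was 4.44-fold and the kinesin Kif5c (156 kb) 3.35-fold higher. Ttbk2, Ddah1, Aldh1a1 and Sptbn1 had ratios from 3.75 to 4.79. Among coding genes under 20 kb, Lrtm1 had no UMI in the members against 1420, Leng8 had 1 against 1223 (ratio 0.0231, interval 0.000584 to 0.129) and the splicing regulator Rbm4b had 7 against 1415 (0.140, 0.0560 to 0.288).

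Clustering of the Malat1-poor barcodes alone gave 4 groups, and only 1 could be named. Group 1 (113 barcodes) had 5 of 8 CA1 markers, among them Wfs1, Spink8 and Itpka, at least 2-fold above the other groups. It was shallow and had none of the 8 among its leading genes, so it stayed unnamed. CA1 and dentate granule markers summed to 1761 and 1739 CPM in it. Group 2 (88 barcodes, median 632.5 UMIs) had 6 of 8 astrocyte markers at least 2-fold above the other groups. All 8 summed to 13260 CPM in it and to 14120 CPM in the astrocyte-like class, and it also had the highest levels of Ddn (3070 CPM), Map1a (4130 CPM) and Camk2a (12970 CPM). Its leading genes mixed Gfap of astrocytes with Ddn and Lrrc10b. Group 3 (68 barcodes, median 2470.5 UMIs) was mixed, with Flt1 of endothelium, Rgs5 of mural cells, Mal of oligodendrocytes and P2ry12 of microglia among its leading genes. Astrocyte markers summed to more in it, however, at 8399 CPM, against 4399 CPM for oligodendrocyte, 554 for microglia, 466 for endothelial and 204 for mural markers. Assigned singly by marker UMIs, 41 of its 68 barcodes best matched the astrocyte-like class. Group 3 held 259803 of the 525400 UMIs of the members, and without it 1142 genes instead of 1773 were at least 2-fold higher. Group 4 (48 barcodes) had all 8 thalamic markers at least 2-fold above the other groups, with 5 among its leading genes, and is called thalamic-like. When both sides were clustered together, 306 of the 317 members fell into 3 of 17 clusters, which held only 40 Malat1-rich barcodes.

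Levels of the 6 genes differed among the groups. Map1a stood between 1794 and 4130 CPM in all 4, above its highest Malat1-rich class at 355 CPM. Ddn ranged from 205 CPM in the thalamic-like group to 3070 CPM in group 2. Hpca and Nrgn were highest in group 1, at 1152 and 2305 CPM, and lowest in the thalamic-like group, at 94.5 and 236 CPM, below their levels in the CA1-like class. Aldoc and Clu were lowest in group 1, at 304 and 391 CPM, and highest in group 2, at 1340 and 2120 CPM. The thalamic-like Malat1-rich barcodes held Hpca and Nrgn at 8.74 and 26.2 CPM.

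**Figure D4:**
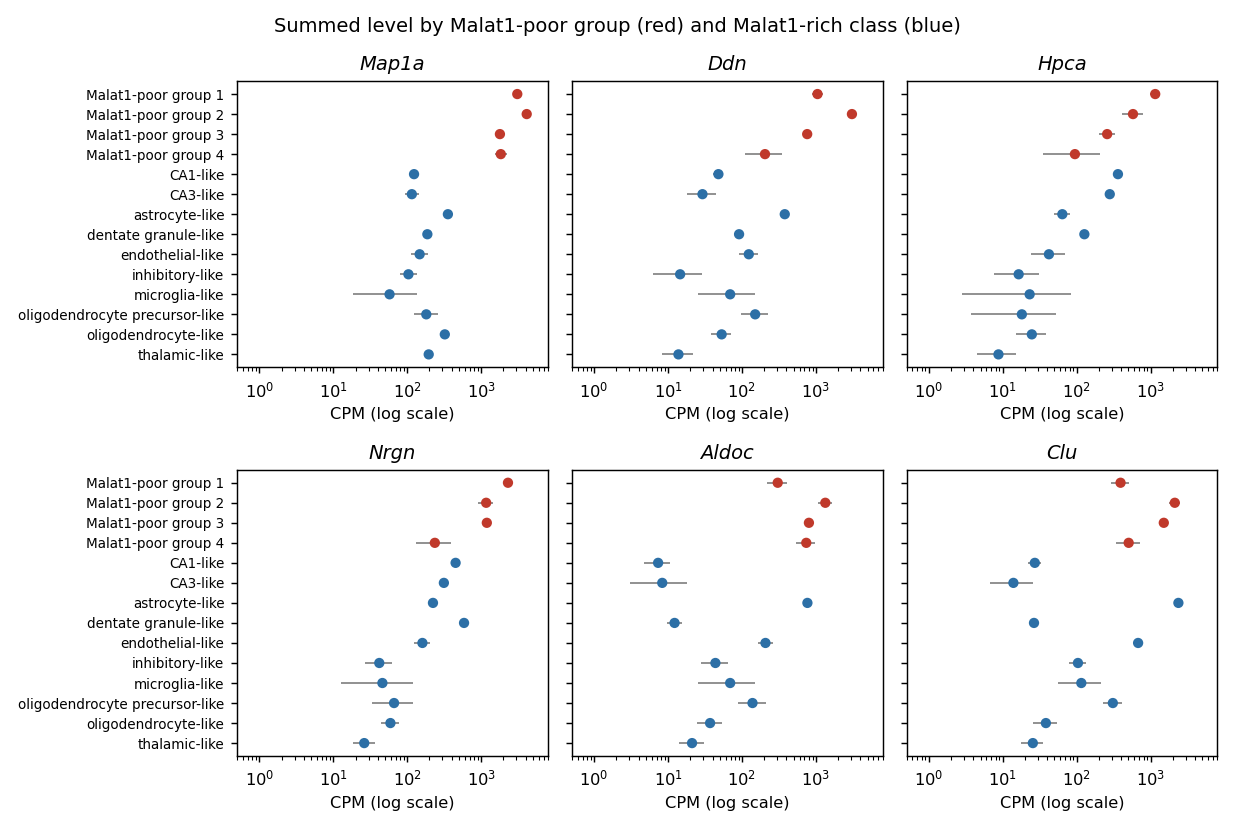
Summed level in CPM (horizontal axis, log scale, bars are 95% exact Poisson intervals) of 6 genes in the 4 groups of Malat1-poor barcodes (red; group 4 is thalamic-like) and the 10 named classes of Malat1-rich barcodes (blue). Map1a lies above all blue points in each red group, while Clu stays below the astrocyte-like class in each. Aldoc lies above that class in group 2, at 1340 against 767.5 CPM, and near it in groups 3 and 4.

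Clusters named thalamic-like occurred on both sides and were compared. Assigned singly by their marker UMIs, however, only 20 of the 48 Malat1-poor barcodes best matched the thalamic-like class, and 25 best matched the astrocyte-like one, so the Malat1-poor side was mixed by this measure. The 48 Malat1-poor ones gave 63462 UMIs and the 67 Malat1-rich ones 1372421. Of 1101 genes kept, 167 (15.2%) were at least 2-fold higher and 524 (47.6%) lower, with a median log2 ratio of -0.85. The count filter leans these shares toward lower genes, because it rests mostly on the deeper Malat1-rich side. Gm20642 passed it with 1 against 1421 UMIs, while Aldoc did not with 47 against 29. Map1a was 9.44-fold higher (7.53 to 11.8), with 117 against 268 UMIs, Cox8a 7.79-fold and Fth1 16.8-fold. Only 5 of the 30 respiratory chain genes and 5 of the 16 glycolytic genes were kept here, so no count is given for them. Kcnip4 stood at 0.0348 (0.0253 to 0.0468), Fgf14 at 0.0456 and Meg3 at 0.0737. Of 24 kept long adhesion genes, 23 were at least 2-fold lower. Genes of 100 kb or more took 23.6% of UMIs in the Malat1-poor and 53.7% in the Malat1-rich thalamic-like barcodes.

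The same thalamic-like barcodes also held transcripts of other cell types. Apoe had 144 UMIs in the Malat1-poor and 51 in the Malat1-rich ones, a ratio of 61.1 (44.1 to 85.8), Aldoc a ratio of 35.1 (21.6 to 57.8) and Cst3 of 22.2. The myelin genes Mobp and Mbp had ratios of 49.9 (25.3 to 104) and 39.4 (26.3 to 59.8). Of these 5 genes only Cst3 passed the filter on counts, with 144 against 140 UMIs, and the other 4 ratios are given below it. Astrocyte markers summed to 3908 CPM in the Malat1-poor and 331 CPM in the Malat1-rich thalamic-like barcodes, and oligodendrocyte markers to 1812 and 67.8 CPM. Over all members, astrocyte markers summed to 7002 CPM against 1291 CPM, with all 8 detected and a range of 2885 to 13260 CPM over the 4 groups. The 7 erythroid markers had no UMI in the members, which at a floor of 3 UMIs allows up to 5.71 CPM, and stood at 62.8 CPM in the Malat1-rich barcodes. The part of RNA from neighbouring cells in these values was not tested.

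Single barcodes often held neuronal and astrocyte transcripts at once. Each barcode was thinned to 500 UMIs so that depth was equal, which left out none. A Map1a UMI was then found in 63.7% (58.2 to 69.0) of the Malat1-poor and 9.67% (8.12 to 11.4) of the Malat1-rich barcodes, against 79.8% and 63.9% before thinning. For Ddn the thinned shares were 39.7% and 4.57%, and oligodendrocyte-like barcodes, a class that should lack Ddn, stood at 2.15% from a median depth of 3052 UMIs. The same class stood at 14.2% for Map1a. At least 1 UMI of the dendritic list and 1 of the 8 astrocyte markers occurred together in 77.3% (72.3 to 81.8) of the Malat1-poor barcodes. The product of their separate shares was 76.3%. In the Malat1-rich barcodes both occurred together in 16.3% (14.4 to 18.5), in 5.41% of the CA1-like and in 71.5% of the astrocyte-like ones. Conversely, a Meg3 UMI was found in 13.6% of the members and 44.0% of the others, and in 95.5% of thalamic-like Malat1-rich barcodes against 16.7% of the Malat1-poor ones.

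Along the Malat1 share, the lists changed differently. The dendritic list took a median of 1.52% of UMIs in barcodes under 0.25% Malat1, 0.948% between 1% and 1.5%, 0.187% between 1.5% and 2%, and 0.199% at 8% or more. Genes of 100 kb or more took 20.1%, 29.3%, 37.3% and 44.9% in the same ranges, with the highest median, 49.5%, between 4% and 6%. Barcodes between 1% and 1.5% thus lay between both sides for each of these measures. The 14 barcodes just inside the limit had a median of 0.805% for the dendritic list and the 20 just outside had 0.264%.

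**Figure D5:**
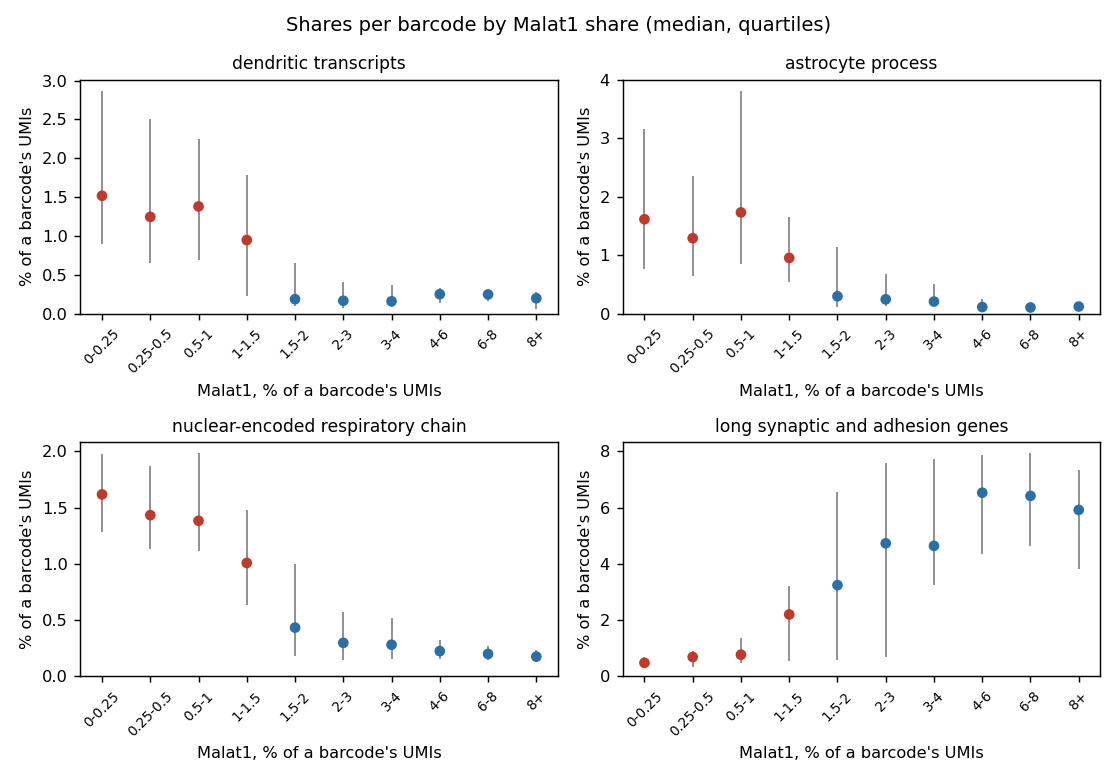
Share of a barcode's UMIs (vertical axes, %) from 4 gene lists against the barcode's Malat1 share (horizontal axes, ranges in %), as medians (points) and quartiles (bars), with Malat1-poor ranges in red and Malat1-rich in blue. The dendritic list has a median of 1.52% under 0.25% Malat1, 0.948% just below the limit and 0.187% just above it, and the long adhesion genes climb from 0.482% under 0.25% Malat1 to 6.53% between 4% and 6%.

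Depth differed between the sides, so barcodes under 2000 UMIs were also compared alone, 255 Malat1-poor and 106 Malat1-rich. Here 5178 genes were kept, and 1728 (33.4%) were at least 2-fold higher and 1361 (26.3%) lower. Of the 106, 47 were oligodendrocyte-like, 28 unnamed and 15 microglia-like, and 2 were in a named neuronal class. Against these, Map1a was 7.73-fold (5.84 to 10.4), Ddn 10.5-fold and Hpca 11.3-fold higher, and all 11 dendritic and all 30 respiratory chain genes were at least 2-fold higher. Some neuronal genes that were lower against all Malat1-rich barcodes were higher here, with Grin2a at 2.86 and Syt1 at 2.51. Of the 25 long adhesion genes, 14 were at least 2-fold lower and 1 higher, with Kcnip4 at 0.170 and Lsamp at 0.642.

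Myelin genes passed the limit no more often than all genes. Of 11, 2 were at least 2-fold higher, Mobp (5.33-fold, 4.64 to 6.09) and Mbp (3.67-fold, 3.40 to 3.96), beside 21.9% of all genes. Another 2 were lower, Mog (0.478) and Opalin (0.422), beside 30.7% of all genes. Mbp and Mobp messengers are known to be carried into oligodendrocyte processes, but whether this bears on their ratios was not tested. Among barcodes under 2000 UMIs alone, Mbp went the other way, with a ratio of 0.543 (0.455 to 0.648). There, 47 of the Malat1-rich barcodes were oligodendrocyte-like. Mbp and Mobp stayed below the oligodendrocyte-like class, at 0.285 and 0.371 of its level, and Mog stood at 0.0288 of it. Without the 68 barcodes of group 3, the list's median log2 ratio went from 0.39 to -1.53. Of 12 immediate early genes 6 were kept. Of these, Egr1 (3.73-fold), Junb (2.48-fold) and Arc (4.76-fold), whose messenger is carried into dendrites, were higher and Nr4a1, with 6 UMIs against 521, was lower. That is 3 higher and 1 lower of 6, beside 21.9% and 30.7% of all genes.

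In the E14 library the same limits gave 1057 Malat1-poor and 7979 Malat1-rich barcodes. Their Malat1 medians were 0.943% and 3.27%, so the limit there lay nearer to the bulk of the barcodes. Of 12724 genes kept, 1453 (11.4%) were at least 2-fold higher and 1035 (8.13%) lower in the Malat1-poor barcodes. Of 80 ribosomal protein genes 78 were at least 2-fold higher, as were 23 of 30 respiratory chain genes, and 21 of 25 long adhesion genes were lower. None of 8 kept dendritic genes passed the limit in either direction, with Map1a at 1.85 and Camk2a at 0.752, and Ddn had 0 and 9 UMIs. Genes of 100 kb or more took 36.6% of UMIs in the Malat1-poor and 47.7% in the Malat1-rich barcodes. The libraries differ in age, tissue and processing version, and the study's methods describe a correction for background RNA with CellBender for the embryo and not for the hippocampus. These cannot be told apart.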

How the data were processed

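The deposited files hold UMI counts per gene and barcode. The authors aligned reads to mm10 with Cell Ranger (version 6.1.2 in the adult file header, 7.0.1 in the E14 header; whether the E14 file is after CellBender was not settled), counted intronic reads and called barcodes; exonic and intronic counts were not separated, so pre-messenger RNA adds to the counts of long genes. Here, 32285 genes were read for 1661 adult and 9037 E14 barcodes, with the limits given above. UMIs were summed per side. A gene was kept when its total UMIs times the Malat1-poor share of UMIs reached 10, and counted when past 2-fold. Where the Malat1-rich side gave most UMIs, this filter let genes low in the Malat1-poor barcodes pass more easily. Intervals are 95% exact Poisson or Clopper-Pearson. Clusters came from Seurat 5.3.0 (2000 variable genes, 30 components, resolution 0.8). A cluster was named when at least 4 markers of a list were detected at 2-fold over the rest, unless another list had as many among the 10 leading genes, or the cluster was shallow with no marker among them. Scrublet in scanpy 1.11.5 called 5 doublets; none was removed, and taking out the 22 highest scores was an alternative. Gene models were GENCODE vM21 (GRCm38), matched for 32235 genes. Ratios were tested on simulated data with known folds.

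The members, lists and markers were chosen with earlier results of these data known. Named genes were those of the lists, the 15 highest and 15 lowest ratios (counts under 3 ranked at 3) and the 10 highest and lowest of the thalamic-like comparison. Alternatives changed the Malat1, mitochondrial and depth limits, the filter on low counts, the weighting of barcodes, the denominator and the clustering. Some genes of the lists are not reported here by name.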

Additional observations from a re-analysis of the deposited data

Results flagged for a closer look

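A median log2 ratio of Malat1-poor to Malat1-rich barcodes had opposite signs in the adult and E14 libraries for 4 lists. Dendritic transcripts stood at 2.31 in the adult and at -0.245 in E14, genes of synaptic vesicles and release at 1.17 and -0.693, and myelin genes at 0.39 and -0.042. Genes for nuclear proteins and splicing stood at -0.45 and 0.332. With 1 library per tissue, none of these differences was tested.

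The 52 adult barcodes that the mitochondrial limit removed entered no comparison, and they held Map1a at 2431 CPM, 13.37-fold above the Malat1-rich barcodes (95% exact binomial interval 11.3 to 15.7). In the same barcodes Ddn was 33.1-fold (28.2 to 38.6), Aldoc 20.3-fold and Clu 11.4-fold higher than in the Malat1-rich barcodes, and Hpca 1.748-fold (1.05 to 2.74). The dendritic list took a median of 3.62% of their UMIs, against 1.395% in the Malat1-poor barcodes that were kept.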

How the results depend on the processing

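No paired analysis was possible because each tissue gave 1 library and no group has replicates. Of 1773 genes at least 2-fold higher and 2483 lower, a mitochondrial limit of 1%, which left 100 of the 317 Malat1-poor barcodes, gave 648 and 987, and an expected count of at least 3 gave 2755 and 3865. A 4-fold limit gave 523 and 1127. No filter beyond 1 UMI on each side gave 4321 higher, a Malat1 limit of 2% gave 1634 lower and barcodes under 2000 UMIs gave 1361 lower. A minimum of 1000 UMIs left 142 Malat1-poor barcodes. With a Malat1 limit of 2%, list medians (log2) were 0.768 for ATPase pumps, -0.033 for myelin, -0.755 for nuclear noncoding RNA, -0.988 for long adhesion genes and 0.774 for immediate early genes. With the mitochondrial limit of 1% they were 0.933 for synaptic vesicles, -1.794 for myelin and -0.212 for immediate early genes. Under 2000 UMIs they were -2.819 for myelin, -0.265 for nuclear noncoding RNA and 0.946 for glutamate receptors. As a mean over barcodes, myelin stood at -1.685. Weighting the Malat1-rich classes to the make-up of the other side gave 0.121 for the astrocyte list, a ratio of 1.647 for Aldoc and 0.8573 for Clu. Aldoc, Clu and other genes of that list were themselves among the markers that set this make-up. The ratio of UMI shares from genes of 100 kb or more, 0.467, was 0.6462 at the Malat1 limit of 2%, 0.5673 at the mitochondrial limit, 0.5802 under 2000 UMIs and 0.519 after weighting. Of the Malat1-poor barcodes, 269 were in unnamed clusters, against 167 at resolution 1.6 and 174 when both sides were clustered together. Thinning to 1000 UMIs gave shares of barcodes of 81.69% for Map1a, 50% for Ddn, 34.51% for Hpca, 62.68% for Nrgn, 43.66% for Aldoc, 47.89% for Clu and 88.73% for both lists together.

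The following settings were added after seeing the data. Without the 4 Malat1-poor barcodes over 10000 UMIs, myelin stood at -0.033 and immediate early genes at 0.838. Without group 1, immediate early genes stood at 0.636 and the ratio of Hpca at 1.773. Without group 3, 1142 genes were higher, myelin stood at -1.529 and immediate early genes at 0.264. Without group 4, immediate early genes stood at 0.875. Leaving out the 40 Malat1-rich barcodes that clustered with the Malat1-poor ones moved none of these results past its limit. Beyond the fewer barcodes or genes that a setting leaves, the cause of these changes was not tested.

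The Malat1-poor barcodes gave 3.42% of UMIs, so genes under the count filter were left out of the counts of genes and the list medians. There is 1 library, the members were selected on the same UMIs, and the counts do not separate exons from introns.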

Other observations

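Of the 40 Malat1-rich barcodes that fell into the 3 clusters with most Malat1-poor barcodes, 28 were unnamed, 6 astrocyte-like and 4 thalamic-like. Of the 4 Malat1-poor barcodes over 10000 UMIs, none had more than 0.887% Malat1 or under 1.14% mitochondrial UMIs.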
